A study of Mus musculus with 10 samples.

Results

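The 10 genes described here encode the urea cycle and the nitrogen-handling enzymes of periportal hepatocytes. They are Nags, Cps1, Otc, Slc25a15, Ass1, Asl, Arg1, Gls2, Hal and Sds, chosen by name for their known function and all found among the 54532 genes of the table. They were measured by RNA sequencing in 10 mouse livers. ASK1f/f control mice, of which there were 5, are homozygous for a murine ASK1 cDNA placed in the ROSA26 locus behind a stop cassette flanked by loxP sites. ASK1+hep mice, also 5, carry the same construct and in addition Alb-Cre, which removes the stop cassette in cells with an active albumin promoter. All mice were on a C57BL/6J background, started a high fat diet (HFD) at 6 weeks of age, ate it for 7 weeks and were fasted for 5 h before the livers were taken. ASK1, the product of Map3k5, is a stress-activated kinase upstream of JNK and p38, and the comparison asks how its overexpression in hepatocytes changes the liver transcriptome.

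The urea cycle turns ammonia and the amino group of aspartate into urea. Its first steps are mitochondrial: NAGS makes N-acetylglutamate, the obligate activator of carbamoyl phosphate synthetase 1 (CPS1), and ornithine transcarbamylase (OTC) then joins carbamoyl phosphate to ornithine, which ORC1, the product of Slc25a15, carries across the inner membrane. ASS1, ASL and arginase 1 complete the cycle in the cytosol. GLS2, HAL and SDS release ammonia from glutamine, histidine and serine, and these enzymes are most abundant around the portal vein, whereas glutamine synthetase (Glul) removes the remaining ammonia around the central vein. Glucagon through cAMP, glucocorticoids and C/EBP factors are known inducers of this set.

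In the build used by the table (GRCm38, whose coordinates equal those of GENCODE M21 for 98.3% of the 54409 genes found in both), 3 members lie on chromosome 10: Arg1 at chr10:24915221-24927484 on the minus strand, Hal at chr10:93488768-93519304 and Gls2 at chr10:128194457-128210004, both on the plus strand. Cps1 spans chr1:67123026-67231259 and Otc spans chrX:10252305-10321024, both on the plus strand. Ass1 is at chr2:31470207-31520672 and Nags at chr11:102145513-102149477, again on the plus strand, and Slc25a15 is at chr8:22375551-22398597 on the minus strand. On chromosome 5, Asl lies at chr5:130011258-130029247 on the minus strand and Sds at chr5:120476526-120483932 on the plus strand. Values are counted over the exons of a gene. Nags overlaps the antisense gene Gm11586, Gls2 overlaps Spryd4, and Sds overlaps Gm15690 and Plbd2, all on the opposite strand. Whether counting used strand is not given in the sources used here, so reads of these 3 members cannot be told apart from reads of their partners. Gm11586 stayed at or below 1.05 FPKM (fragments mapped to a gene, scaled by its length and by library size), Spryd4 lay at 14.3 to 21.4 FPKM, Gm15690 at 2.67 to 29.0 FPKM and Plbd2 at 10.99 to 17.19 FPKM. Mean Gm15690 was 19.4 FPKM in the control livers and 14.6 FPKM in ASK1+hep, lower in the same direction as Sds; its part in the value of Sds was not tested.

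RefSeq promoter windows, from 250 bases before to 50 after the start site (GRCm38.p6), were found for 5 members, namely Ass1, Slc25a15 with a pair of windows, Hal, Nags and Otc. The windows shown are those whose RefSeq start is exactly the gene start in the table, so that they sit at the 5′ end of the transcripts counted here. They are written 5′ to 3′ along the gene, with matches to the motifs named next in capitals.
Nags, chr11:102145263-102145562, plus strand: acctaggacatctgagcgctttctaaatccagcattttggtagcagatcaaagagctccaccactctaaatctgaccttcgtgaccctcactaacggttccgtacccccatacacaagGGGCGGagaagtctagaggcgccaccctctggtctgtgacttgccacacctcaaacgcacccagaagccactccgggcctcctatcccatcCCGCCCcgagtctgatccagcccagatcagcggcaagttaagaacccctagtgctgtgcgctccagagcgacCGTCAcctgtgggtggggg
Hal, chr10:93488518-93488817, plus strand: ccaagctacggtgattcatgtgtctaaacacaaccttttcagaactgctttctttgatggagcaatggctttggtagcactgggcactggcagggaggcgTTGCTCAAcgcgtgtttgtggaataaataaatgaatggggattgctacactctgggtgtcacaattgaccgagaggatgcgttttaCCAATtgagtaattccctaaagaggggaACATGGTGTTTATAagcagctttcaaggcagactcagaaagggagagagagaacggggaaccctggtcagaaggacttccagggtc
Otc, chrX:10252055-10252354, plus strand: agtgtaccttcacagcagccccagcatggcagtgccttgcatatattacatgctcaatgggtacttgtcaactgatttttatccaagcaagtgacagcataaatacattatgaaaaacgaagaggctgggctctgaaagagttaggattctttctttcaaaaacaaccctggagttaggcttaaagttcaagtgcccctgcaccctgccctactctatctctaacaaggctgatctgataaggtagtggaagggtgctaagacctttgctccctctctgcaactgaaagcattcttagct

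Both strands were searched for the letters of 8 motifs, and the share of all 32851 promoter windows with the same letters is given beside each. The Nags window held GGGCGG (a GC box, 35.7% of all windows) at -132 and, on the reverse strand, at -41, and the cAMP response core TGACG (20.8%) on the reverse strand at +32. The Hal window held a C/EBP palindrome TTGCNNAA (10.8%) at -150, CCAAT (37.4%) at -64, ACANNNTGT (a relaxed glucocorticoid response element, 6.85%) at -36 and TATAAA (13.6%) on the reverse strand at -28, the last overlapping its neighbour by 1 base. The Otc window held none of the letters searched. GGGCGG was present in 4 of the 6 member windows, and neither the full cAMP response element TGACGTCA (1.79%) nor the C/EBP-ATF letters TGATGNAAT (0.965%) was in any of them. GC content was 57.7% for Nags, 47.7% for Hal and 44.3% for Otc, beside a median of 52.7% over all windows. These are matches of letters in short windows and say nothing about binding.

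The libraries held 13367742 to 16163378 reads on genes, recovered from the FPKM values, and 13261 genes passed the filter on low values, all 10 members included. Map3k5 was 4.71 to 6.88 FPKM in 4 ASK1f/f livers but 19.8 FPKM in ASK1f/f 5, against its label, and 7.68 to 16.4 FPKM in ASK1+hep. The libraries ASK1+hep 2, 3 and 4 stood apart: the median log2 deviation of 250 short transcripts (at most 1000 bases, at least 20 FPKM) from their medians over the livers was 0.31, 0.89 and 0.28, and it lay between -0.19 and 0.017 in the other 7. Mitochondrially encoded genes took 10.9% of the reads in ASK1+hep 3 and 4.19% to 6.74% elsewhere. The summed level of 6 hepatocyte markers was high in every liver, 30670 to 41920 FPKM in the ASK1f/f livers and 35940 to 45250 FPKM in ASK1+hep. Of these 6, 2 had a log2 fold change above 0 and 1 had an unadjusted p under 0.05. Summed Kupffer cell markers were 87.4 to 149 FPKM and 55.9 to 139.8 FPKM. Of these 6 markers, 0 had a log2 fold change above 0 and 0 had an unadjusted p under 0.05. Summed erythroid markers were 333 to 490 FPKM and 324 to 1053 FPKM, with 4 of 5 above 0 and 2 of 5 at an unadjusted p under 0.05. The adipocyte markers were near 0, with Lep at 0 in all livers. The part of these other cells in the values of the 10 genes was not tested.

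Levels of the 10 genes ran from a mean of 26.8 to 765 FPKM and kept much of their order from liver to liver. FPKM is scaled by 1 gene length for all livers, such as 4241 bases for Otc, 5555 for Cps1 and 2414 for Ass1. The order and shares of the genes therefore depend on these lengths. Whether they match the transcripts present in liver was not tested. Ass1 was the most abundant with a mean of 765 FPKM over the 10 livers, followed by Arg1 with 614 FPKM and Cps1 with 440.4 FPKM, and these 3 held 32.6%, 25.9% and 18.3% of the summed FPKM of the 10 genes on average. Asl at 135.5 FPKM, Sds at 107 FPKM, Gls2 at 88.2 FPKM and Otc at 87.5 FPKM formed a middle range. Slc25a15 at 54.5 FPKM, Hal at 46.7 FPKM and Nags at 26.8 FPKM were the least abundant. Otc was thus lower in FPKM, on these gene lengths, than both of its neighbours in the cycle, Cps1 and Ass1. Of the 9 pairs of neighbours in this order, 7 differed by the exact two-sided sign-flip test over the livers (adjusted p 0.00586 to 0.0201 over the 9 pairs, smallest possible raw p 0.00195). The order was taken from the same livers. This test measures only the spread between livers and cannot detect an offset of a gene that all livers share. Sds was above Gls2 in 8 of 10 livers (adjusted p = 0.0967, exact sign-flip test) and Gls2 above Otc in 6 of 10 (adjusted p = 0.766, exact sign-flip test), so the order of these 3 was not resolved beyond their spread. Asl, the cytosolic lyase, was above Sds in 9 of 10 livers, and Ass1 was above Arg1 in 9 of 10.

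None of the 10 genes passed the test between the genotypes. The test was limma on log2(FPKM + 1) with Benjamini-Hochberg adjustment over all genes tested, and 0 of 10 had an unadjusted p under 0.05, where 5.77% of all genes tested had one (765 of 13261). After adjustment 0 genes were called in the whole table (0%), and limma-voom with quality weights called 1, Fgf21, and gave 1 member, Cps1, an unadjusted p under 0.05. In 7 of the 10 the mean was lower in ASK1+hep. The log2 fold changes of all 10 had a median of -0.12 against -0.0065 over all genes tested. Log2 fold changes below 0 made up 51.9% of all genes tested. Scaling the libraries by all reads on genes instead of the authors' library size put all 10 below 0, with a median over all genes of -0.052, so the direction of the smallest differences depended on the scaling. The groups overlapped for every member, while 0.860% of all genes had groups that did not overlap. No difference was established for these genes. Because the tissue was bulk liver, a change in the number of periportal cells and a change in RNA per cell could not be told apart.

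**Figure D1:**
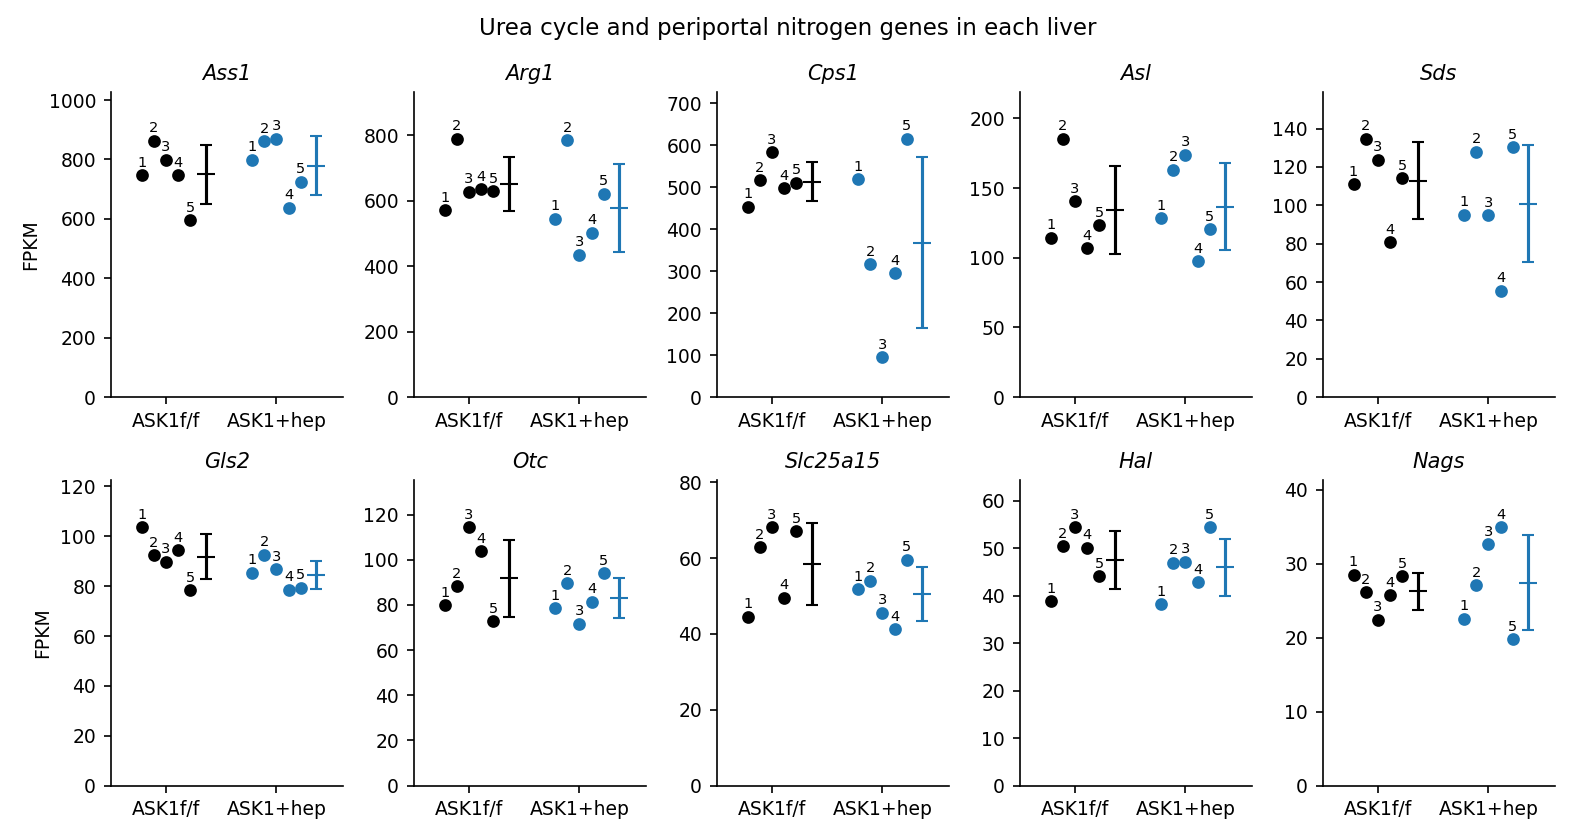
FPKM (y axis, from 0) of the 10 genes in each liver, ordered by mean level; points are single livers numbered by replicate, black for ASK1f/f and blue for ASK1+hep, and the bar beside them is the mean with its SD (n = 5). The groups overlap in every panel. Cps1 in ASK1+hep 3, at 94.9 FPKM, and to a smaller degree Sds in ASK1+hep 4, at 55.45 FPKM, lie below the other livers.

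The mitochondrial steps contained the widest and some of the narrowest differences. Cps1, which makes carbamoyl phosphate and is the entry point of ammonia, was 454, 517, 583, 498 and 511 FPKM in ASK1f/f livers 1 to 5. In ASK1+hep livers 1 to 5 it was 519, 316, 94.9, 295 and 616 FPKM. The 5 controls lay close together, and ASK1+hep 2, 3 and 4 were below all of them, whereas ASK1+hep 1 was within and ASK1+hep 5 above the control range. The means were 513 ± 46.5 FPKM and 368 ± 204 FPKM (n = 5, with SD), a log2 fold change of -0.72 (SE 0.40, 95% interval -1.61 to 0.16, limma unadjusted p = 0.101, adjusted p = 0.813; exact permutation p = 0.159). Much of this size came from 1 library: without ASK1+hep 3 the log2 fold change was -0.30. Without ASK1+hep 5 it was -0.97 (limma unadjusted p = 0.0297, adjusted p = 0.382).

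Relative to the mean of the controls, Cps1 was 1.62-fold, 5.40-fold and 1.74-fold lower in ASK1+hep 2, 3 and 4. These were the libraries with the highest short-transcript deviation given above, and their Fgf21 was also the highest of the 10, at 25.0, 30.1 and 23.4 FPKM, beside 12.3 and 7.41 FPKM in ASK1+hep 1 and 5 and 2.46 to 4.74 FPKM in the controls. Fgf21, which encodes a stress-induced hepatokine, had a log2 fold change of 2.06 (SE 0.32, limma adjusted p = 0.349). Within ASK1+hep, Map3k5 itself was lowest in livers 2, 3 and 4, at 11.1, 7.68 and 12.4 FPKM. In ASK1+hep 1 and 5 it was 16.4 and 15.2 FPKM. How Cps1 depends on the level of Map3k5 was not tested. Cps1 has a long transcript, 5555 bases in the table, and long transcripts as a class (over 4000 bases) moved little, with a median log2 deviation of -0.051 in ASK1+hep 3. Among 389 such genes with at least 20 FPKM, 0 deviated further down than Cps1 in ASK1+hep 3, 5 did in ASK1+hep 2 and 10 did in ASK1+hep 4. After removal of the dependence on GC content and length in each library, Cps1 had a log2 fold change of -0.68 (SE 0.37, limma unadjusted p = 0.0922, adjusted p = 0.746). On this corrected log2 scale ASK1+hep 3 was at 6.73, beside 8.82 to 9.16 in the controls. The correction was added after seeing the data and removes only the average trend of each library. ASK1+hep 3 also had the lowest voom quality weight, 0.238. The part of library quality in the Cps1 values was not tested.

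**Figure D2:**
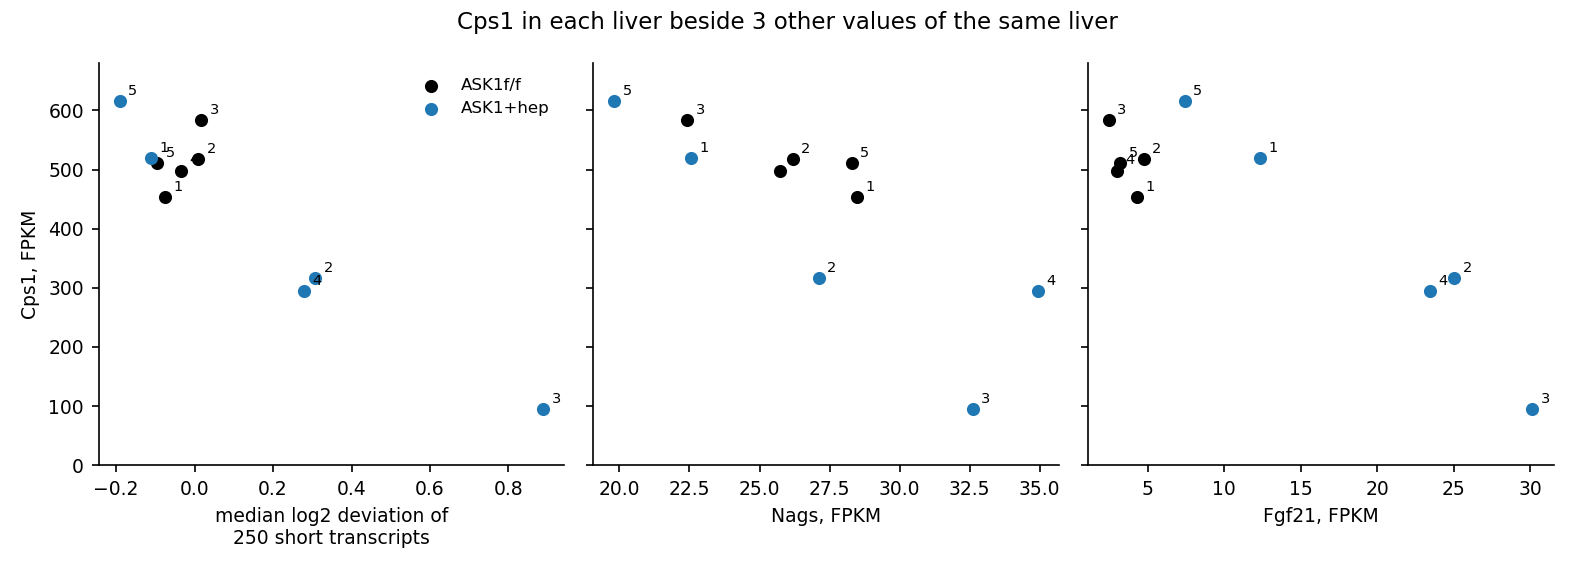
Cps1 in FPKM (y axis, from 0) in each liver against the median log2 deviation of 250 short transcripts, Nags in FPKM and Fgf21 in FPKM of the same liver; points are numbered by replicate, black for ASK1f/f and blue for ASK1+hep. ASK1+hep 2, 3 and 4 are the lowest in Cps1 at 316, 94.9 and 295 FPKM and the highest in the short-transcript deviation and in Fgf21. Fgf21 is itself short, with 951 bases.

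Otc, the next enzyme, did not fall as far as Cps1 in ASK1+hep 2, 3 and 4, although ASK1+hep 3 was its lowest liver too. Its levels were 79.8, 88.3, 114.5, 104 and 72.8 FPKM in the ASK1f/f livers and 78.5, 89.5, 71.8, 81.4 and 94.2 FPKM in ASK1+hep. The ASK1+hep livers fell within the control range except for ASK1+hep 3, just under it, and the log2 fold change was -0.13 (SE 0.14, limma adjusted p = 0.845). It was between -0.21 (without ASK1f/f 5) and -0.046 (without ASK1f/f 3) when single livers were left out, with -0.079 without ASK1+hep 3 and -0.081 without ASK1f/f 4. The ratio of Cps1 to Otc was therefore 4.80 to 7.02 in the controls, 6.61 and 6.53 in ASK1+hep 1 and 5, and 3.53, 1.32 and 3.62 in ASK1+hep 2, 3 and 4. Likewise the share of Cps1 in the summed FPKM of the 10 genes was 18.4% to 22.6% in the controls and 12.3%, 4.86% and 15.8% in those 3 livers.

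Nags, which makes the activator of CPS1, was the scarcest member. It was 28.5, 26.2, 22.4, 25.7 and 28.3 FPKM in the ASK1f/f livers and 22.5, 27.1, 32.6, 34.9 and 19.8 FPKM in ASK1+hep. The ASK1+hep livers spread to both sides of the controls, with 2 above and 1 below all of them, and the log2 fold change was 0.036 (SE 0.15, limma adjusted p = 0.965), a sign that turned when all reads set the scaling (-0.041) and after the GC and length correction (-0.029). Slc25a15, the ornithine carrier, was 44.5, 62.9, 68.2, 49.6 and 67.1 FPKM in the ASK1f/f livers and 51.8, 54.1, 45.6, 41.3 and 59.6 FPKM in ASK1+hep. Most ASK1+hep livers lay inside the control range, with a log2 fold change of -0.20 (SE 0.15, 95% interval -0.53 to 0.13, limma adjusted p = 0.816; -0.13 without ASK1+hep 4).

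The cytosolic enzymes had log2 fold changes between -0.19 and 0.055, and none passed the test. Ass1, argininosuccinate synthase, was 748, 864, 799, 748 and 595 FPKM in the ASK1f/f livers and 799.5, 862, 870.4, 637 and 725 FPKM in ASK1+hep. Livers of both groups were interleaved (log2 fold change 0.055, SE 0.15, 95% interval -0.28 to 0.39, limma adjusted p = 0.946; -0.025 when scaled by all reads). Asl, which splits argininosuccinate, was 114, 186, 141, 107 and 123 FPKM in the ASK1f/f livers and 128, 163, 174, 97.6 and 121 FPKM in ASK1+hep. Here too the groups covered almost the same range (log2 fold change 0.024, SE 0.19, limma adjusted p = 0.981; -0.055 when scaled by all reads). Arg1, which releases urea, was 571, 789.8, 628, 635 and 629.9 FPKM in the ASK1f/f livers and 545, 786, 435, 503 and 622 FPKM in ASK1+hep. In 3 ASK1+hep livers it lay below every control, 1 of them only slightly, and the log2 fold change was -0.19 (SE 0.17, 95% interval -0.57 to 0.19, limma adjusted p = 0.824; exact permutation p = 0.230). It was -0.097 without ASK1+hep 3, -0.12 without ASK1f/f 2 and -0.31 without ASK1+hep 2.

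The enzymes that feed ammonia into the cycle were all slightly lower on average in ASK1+hep, none past the test. Gls2, liver glutaminase, was the steadiest member with a coefficient of variation of 9.23% over the 10 livers, beside 36.1% for Cps1. It was 104, 92.5, 89.8, 94.5 and 78.4 FPKM in the ASK1f/f livers and 85.4, 92.6, 86.7, 78.6 and 79.4 FPKM in ASK1+hep, all within the control range (log2 fold change -0.11, SE 0.11, limma adjusted p = 0.827). Hal, histidine ammonia-lyase, was 38.8, 50.4, 54.4, 50.1 and 44.1 FPKM in the ASK1f/f livers and 38.2, 46.9, 47.2, 42.9 and 54.4 FPKM in ASK1+hep, with fully interleaved groups (log2 fold change -0.049, SE 0.13, limma adjusted p = 0.936). Sds, serine dehydratase, was 111, 135, 124, 80.7 and 114 FPKM in the ASK1f/f livers and 95.1, 128, 94.95, 55.45 and 130.4 FPKM in ASK1+hep. ASK1+hep 4 was the lowest of all livers, and the log2 fold change of Sds was -0.20 (SE 0.23, 95% interval -0.70 to 0.29, limma adjusted p = 0.848), or -0.0064 without ASK1+hep 4. The intervals bound what could have been missed: for Gls2 they ran from 0.787-fold to 1.08-fold, for Otc from 0.738-fold to 1.13-fold and for Cps1 from 0.329-fold to 1.12-fold.

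**Figure D3:**
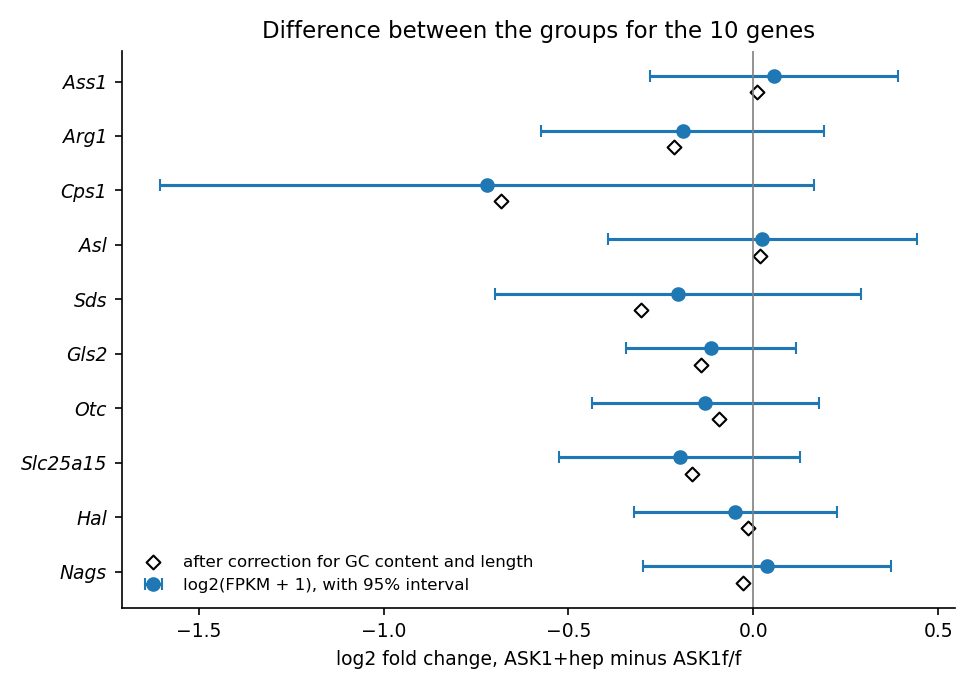
Log2 fold change (x axis, ASK1+hep minus ASK1f/f) of the 10 genes, ordered by mean level; filled points with bars are limma estimates on log2(FPKM + 1) with 95% intervals, and open diamonds are estimates after the correction for GC content and length. Every interval includes 0, and Cps1 has the lowest estimate and the widest interval, -1.61 to 0.16.

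Across the 10 livers, Pearson's r was above 0 in 30 of the 36 pairs of members without Nags and in 0 of the 9 pairs with Nags, as a description. It ran from -0.696 to 0.764, and 0 of the 45 pairs had an adjusted p at or below 0.05 (permutation test with 100000 resamples, Benjamini-Hochberg over the 45 pairs). Spearman's rho, adjusted in the same way, passed for 1 pair. This was Cps1 with Nags, the enzyme and the source of its activator, which ran in opposite directions: rho = -0.903 (permutation p = 0.00077, adjusted p = 0.0346) and r = -0.696 (permutation p = 0.0176, adjusted p = 0.264). Deviations from the group means gave r = -0.751 (permutation p = 0.0106, adjusted p = 0.214). Without ASK1+hep 3 and 4, the livers farthest from the median of Cps1, r was -0.624 (exact permutation p = 0.0862) and rho was -0.833 (exact permutation p = 0.0154). After the GC and length correction r was -0.251 (permutation p = 0.458) and rho was -0.600 (permutation p = 0.0738, adjusted p = 0.332), so the adjusted call was lost on corrected values. GC content alone was not tested.

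The highest positive r was between Ass1 and Asl, the neighbouring cytosolic steps (r = 0.764, permutation p = 0.0100, adjusted p = 0.252; rho = 0.818, adjusted p = 0.139). It was 0.936 without ASK1f/f 5 and ASK1+hep 4, the livers farthest from the median of Ass1, and 0.645 after the GC and length correction. Next came Sds with Slc25a15 (r = 0.730, permutation p = 0.0112, adjusted p = 0.252; rho = 0.733) and Otc with Hal (r = 0.692, permutation p = 0.0281, adjusted p = 0.317; rho = 0.648), which fell to 0.614 and 0.553 without the livers farthest from the median. Outside the members, the 3 genes most like the mean of the 10 z-scored genes, of 3246 genes compared over the 10 livers, were Srsf7 (r = 0.874), Gadd45g (r = 0.838) and Slc45a3 (r = 0.814), given as a description only.

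No gene that works beside the cycle passed the test. The lists here and below were chosen with earlier results of these data known, so their counts are descriptions. Over all genes tested, 5.77% had an unadjusted p under 0.05 and 51.9% had a log2 fold change below 0. Of 16 partners (the aspartate-glutamate carriers, carbonic anhydrase 5a, sirtuins, transaminases and amino acid transporters) 14 could be tested, 11 were lower and 3 higher, and 0 had an unadjusted p under 0.05 (median log2 fold change -0.11). Slc38a3, a glutamine transporter of the hepatocyte and the most abundant of them, was 364.5 ± 50.6 FPKM in the ASK1f/f livers and 332 ± 13.9 FPKM in ASK1+hep (SD, n = 5; log2 fold change -0.12, limma adjusted p = 0.842). Arg2 and Slc25a2 were too low to test. Of 11 regulators, among them the glucagon and glucocorticoid receptors and the C/EBP factors, 0 had an unadjusted p under 0.05 (median -0.0054); Cebpb, the most abundant, was 223 ± 61.7 FPKM and 289 ± 130 FPKM (log2 fold change 0.29, limma adjusted p = 0.839). The difference for Cebpb was 0.096 without ASK1+hep 3, 0.16 without ASK1+hep 2 and 0.12 after the GC and length correction. Of the 11 regulators, 5 were higher and 6 lower, and Atf4 had the highest log2 fold change (0.41, SE 0.23, limma adjusted p = 0.813). Atf4 was 26.2 to 40.3 FPKM in the ASK1f/f livers. In ASK1+hep livers 1 to 5 it was 27.9, 44.1, 66.9, 58.8 and 31.0 FPKM.

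The 4 perivenous nitrogen genes were all higher in ASK1+hep (the median of their log2 fold changes was 0.32), and 2 had an unadjusted p under 0.05, although 0 passed the adjustment and leaving out any of 5 single livers left 1 at an unadjusted p under 0.05. Among all genes tested, 5.77% had such an unadjusted p. Glul, which makes glutamine from the ammonia left by the urea cycle, was 312, 328.5, 305, 249.7 and 306 FPKM in the ASK1f/f livers and 438, 348, 485, 375 and 370.1 FPKM in ASK1+hep. Every ASK1+hep liver was above every control, which no member showed. Groups without overlap, in either direction, were found for 0.860% of all genes tested. The log2 fold change of Glul was 0.42 (SE 0.14, limma unadjusted p = 0.00970, adjusted p = 0.813; exact permutation p = 0.00794, the smallest that 5 against 5 allows), and it stayed between 0.34 and 0.47 in all alternatives. That exact p only restates the lack of overlap. Glul was named for its low unadjusted p, so the exact p is no separate support. Oat, ornithine aminotransferase, was 282, 219, 234, 274.5 and 344 FPKM in the ASK1f/f livers and 437, 323, 329, 327 and 297 FPKM in ASK1+hep, so the groups overlapped (log2 fold change 0.34, SE 0.16, limma unadjusted p = 0.0494, adjusted p = 0.813). The ammonium channel Rhbg (log2 fold change 0.29, limma adjusted p = 0.840) and the glutamate transporter Slc1a2 (0.30, limma adjusted p = 0.813) made up the rest. Perivenous genes outside nitrogen metabolism had 0 of 9 at an unadjusted p under 0.05 and a median of 0.041; Cyp2e1 was 3209 ± 521 FPKM and 3614 ± 138 FPKM (log2 fold change 0.19, limma adjusted p = 0.835). Whether Glul differed from the 10 members was not tested.

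Enzymes of amino acid catabolism, which supply nitrogen to the cycle, had 16 of 22 lower, 5 with an unadjusted p under 0.05 and 0 after adjustment (median -0.093). Over all genes tested these shares were 51.9% lower and 5.77% with an unadjusted p under 0.05, and no set test was run. That count was 0 without ASK1f/f 4 or without ASK1+hep 4. The 4 lower ones were Uroc1, the step after Hal in histidine breakdown (log2 fold change -0.33), Prodh for proline (-0.35), Aass for lysine (-0.43) and Kmo for kynurenine (-0.36), and Agxt, alanine-glyoxylate aminotransferase, was higher (0.36; limma adjusted p = 0.813 for each of the 5). Hpd, the most abundant, had a log2 fold change of 0.095. Aass was 39.4 FPKM in ASK1+hep 3 and 69.6 to 88.4 FPKM in the controls, and Kmo was 44.6 FPKM in that liver and 62.4 to 90.7 FPKM in the controls. Periportal genes outside nitrogen metabolism went both ways, with 4 of 11 at an unadjusted p under 0.05: Cyp2f2 (-0.32), Pigr (-0.45) and Aldh1b1 (-0.70) were lower and Hsd17b6 (1.27) was higher (limma adjusted p = 0.813 for each), while Pck1, the most abundant, had a log2 fold change of 0.27. That count was 1 without ASK1+hep 2 and 2 without ASK1f/f 1, 3 or 4 or with the replicate block. The median of this list was 0.036.

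**Figure D4:**
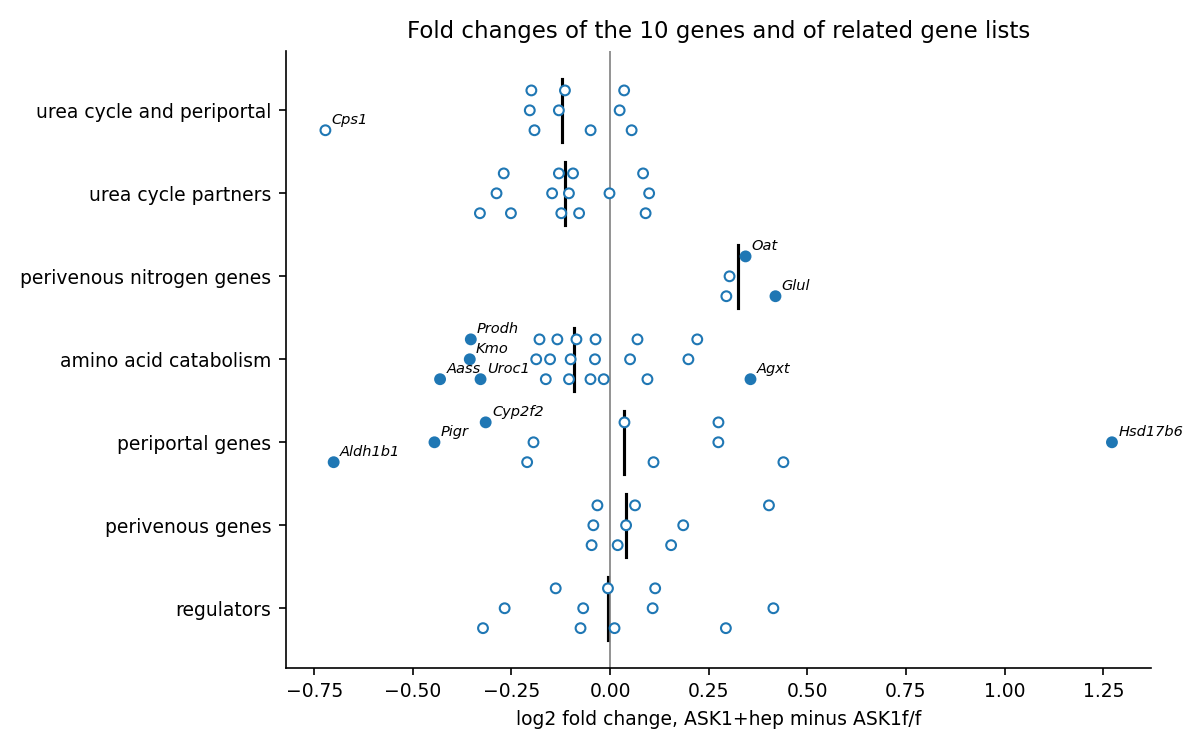
Log2 fold change (x axis, ASK1+hep minus ASK1f/f) of each tested gene of the 10 and of 6 related lists; filled points have an unadjusted p under 0.05 and black bars are list medians. The medians are -0.12 for the 10 genes and 0.32 for the 4 perivenous nitrogen genes, and no gene passes the adjusted threshold.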

How the data were processed

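Livers of 5 ASK1f/f and 5 ASK1+hep mice were sequenced after poly(A) selection. The authors trimmed reads (fastp is named in the submitters' processing notes), mapped them with Hisat2, counted them with FeatureCounts and deposited FPKM per gene and liver. Versions, build and annotation are not given in the sources used here. Reads were recovered as FPKM times gene length over a library step (largest distance from a whole number 0.000172) and served only for filtering, depth (13367742 to 16163378 reads per liver) and limma-voom. Genes that reached 10 reads (after scaling to a library of median size) in 5 or more livers, and 15 reads in total, were tested with limma 3.58.1 (R 4.3.3, mean-variance trend) on log2(FPKM + 1), which understates changes of low genes, with Benjamini-Hochberg adjustment and a threshold of 0.05. Single values had exact permutation tests over livers, and correlations used 100000 resamples (scipy 1.17.1). The fit was tested on simulated data. Groups came from the library names; where nothing else separates the samples, p-values measure the spread between these livers. Any pair of libraries differed by a chi-square of 19.5 or more per degree of freedom, so none was a duplicate. The 10 genes and the other lists were chosen with earlier results of these data known. Named genes are all members, list genes with an unadjusted p under 0.05, the most abundant gene of each list, Map3k5, Fgf21 and the 3 genes most like the members; others were chosen after their values were seen. Alternatives were a table without filter, a minimum of 10 reads in each liver, a pseudocount of 0.1, limma-voom with and without quality weights, replicate block, sample tag prefix, scaling by all reads, 10 fits without 1 liver and, added after seeing the data, a spline correction (5 degrees of freedom) for GC content and length.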

Additional observations from a re-analysis of the deposited data

Results flagged for a closer look

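In 56 groups of 5 values examined, 3 had a liver whose gap to its nearest neighbour exceeded 0.71 of the range of the group; chance gives about 1 in 20. Oat in ASK1+hep 1 was 437 FPKM, above the 297 to 329 FPKM of the other ASK1+hep livers (gap 0.774 of the range). Slc38a3 in ASK1f/f 5 was 277 FPKM, below the 366 to 399 FPKM of the other controls (0.730). Map3k5, the overexpressed gene, was 19.8 FPKM in ASK1f/f 5, above the other controls and above every ASK1+hep liver (0.856). No member of the urea cycle set exceeded this limit in either group. Without ASK1f/f 5 the log2 fold change of Map3k5 was 0.92 instead of 0.60, that of Oat 0.43 instead of 0.34 and that of Ass1 -0.026 instead of 0.055.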

How the results depend on the processing

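All 10 members stayed above the adjusted threshold under each alternative. Direction turned for Nags (-0.041), Ass1 (-0.025) and Asl (-0.055) with scaling by all reads, where 31.5% of genes with an unadjusted p under 0.05 were higher instead of 52.9%; for Ass1 (-0.0037) and Asl (-0.00053) with voom quality weights; and for Nags (-0.029) after the GC and length correction, with or without the replicate block. Genes with an unadjusted p under 0.05 numbered 1222 with no filter, where more genes were tested, and 553 to 1722 without 1 liver (1173 without ASK1+hep 1, 1722 without ASK1+hep 5); genes past the adjusted threshold numbered 1 with quality weights and 0 to 1 without 1 liver (1 without ASK1+hep 5), this being Fgf21 (log2 fold change 2.38 and 2.35). Members with an unadjusted p under 0.05 numbered 1, Cps1, with quality weights (-0.53, limma unadjusted p = 0.0464) and 0 to 1 without 1 liver (Cps1 without ASK1+hep 5).

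At an unadjusted p under 0.05, perivenous nitrogen genes numbered 1 with at least 10 reads in every liver, 1 with scaling by all reads, 3 with the tag prefix as covariate and 1 to 3 without 1 liver (1 without ASK1f/f 2, 3 or 4 or ASK1+hep 1 or 2). Perivenous genes and regulators each numbered 1 with quality weights, and without 1 liver 0 to 1 and 0 to 2 (2 regulators without ASK1+hep 1 or 5; 1 perivenous gene and 1 partner without ASK1+hep 5). Amino acid catabolism ranged from 0 (without ASK1f/f 4 or ASK1+hep 4) to 5 and was 3 or fewer without any liver but ASK1+hep 1 or 5. Periportal genes ranged from 1 (without ASK1+hep 2) to 5, with 2 without ASK1f/f 1, 3 or 4, and partners from 0 to 1. Log2 fold changes without 1 liver ran from -0.057 to 0.14 for Nags, -0.026 to 0.12 for Ass1, -0.070 to 0.15 for Asl, -0.12 to 0.013 for Hal, -0.21 to -0.046 for Otc, -0.31 to -0.097 for Arg1, -0.29 to -0.13 for Slc25a15, -0.17 to -0.069 for Gls2 (-0.069 without ASK1f/f 1), -0.32 to -0.0064 for Sds and -0.97 to -0.30 for Cps1.

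Replicate numbers were not taken to pair the livers: same-numbered deviations correlated at 0.022 to 0.174 (mean 0.108, against -0.0277 for other pairs), with 2 of 5 above 0.1, and no label says that a number marks a litter. That 6 of 10 libraries were closest to their own number, and that sample tags run consecutively within numbers 1 to 4, are hints of a pairing. Arg1, Uroc1, Prodh and Got1 were lower in ASK1+hep in 5 of 5 same-numbered comparisons. Glul, Agxt, Slc1a2, Hsd17b6 and Fgf21 were higher in 5 of 5. The share of all genes with such a pattern was not computed, so these are descriptions. With the replicate block, 0 genes passed the adjusted threshold, 0 members had an unadjusted p under 0.05, and the counts were 1 for partners, 3 for amino acid catabolism and 2 for periportal genes; Cps1 was -0.72 (limma adjusted p = 0.726). The GC and length correction with the replicate block gave 1 partner and 1 regulator. After the GC and length correction without it, 1 pair of members passed by Pearson's r (Ass1 with Nags, r = -0.858, permutation adjusted p = 0.0427) and 0 by Spearman's rho. Except where stated, the cause was not tested.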
